A study of Apis mellifera with 8 samples.

Results

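Genes of protein synthesis that lie at chromatin marked more strongly in queen larvae were followed into the RNA of larval heads. The members are the genes that the honey bee study's table of gene ontology terms for queen-enriched histone marks gives under translation or cytoplasmic translation. Of 53 such genes, 7 were left out because the study's table of RNA differences higher in queens also gives them under mitochondrial gene expression, 3 because it gives them under ribosome biogenesis, and 1 because its symbol starts with Rp. This left 42 members, of which 37 could be paired with a transcript of the files, among 9161 genes paired in all. The 5 others (LOC411646, LOC552287, LOC725136, LOC725555 and LOC726874) are not analysed here. All 37 paired members passed the filter on low values (5 or more counts in 4 or more of the 8 libraries), as did 8156 genes in all. The exclusions used the same RNA contrast as the comparison below, so they shape the values of the genes that remain.

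The RNA came from heads of Apis mellifera larvae taken 96 h after hatching. The 4 queen (96hQ) and 4 worker (96hW) libraries hold 1 head each. Queens and workers are both female and come from the same kind of egg. The head piece is a mixed tissue that holds brain, glands, mouthparts, antennal discs, some fat body and cuticle, and in such a sample fewer cells of a type and less RNA per cell cannot be told apart. The files give estimated counts and TPM (abundances scaled for transcript length to a fixed sum per library) for each transcript of poly(A) RNA read with strand. The histone marks were measured on pooled heads, and their values are not analysed here.

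Translation is the reading of mRNA by the ribosome, a particle of a small and a large subunit built from ribosomal RNA and many short proteins. Initiation factors bring the subunits to the mRNA, aminoacyl-tRNA synthetases load tRNAs with amino acids, and mitochondria run a separate set of ribosomes for the few proteins of their own genome. Genes of ribosomal proteins are among the most highly transcribed genes of growing animals. Queen larvae are fed royal jelly throughout and grow faster than worker larvae, and protein synthesis is a large part of that growth. The members here carry LOC symbols, and what each does is given only by its ontology terms.

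Total estimated counts per library ran from 22057972 to 23344818 in 96hQ and from 19139730 to 21848474 in 96hW, and paired genes held between 78.1% and 81.0% of them. No 2 libraries of the same caste were alike within counting noise. The libraries differed in what else they held: 5 of 18 cuticle genes passed toward 96hQ, 3 of 12 neuron receptor genes and 2 of 5 fat body genes passed toward 96hW, and 0 of 7 muscle troponin genes passed by edgeR (1 by its unadjusted p under 0.05, 0 by DESeq2). None of these markers was at 0. The summed cuticle genes ran from 64269 to 118219 TPM in queens and from 20639 to 35459 TPM in workers, and the neuron genes from 83.8 to 109 TPM in queens and from 157 to 178 TPM in workers. The fat body genes ran from 7459 to 18921 TPM in queens and from 6870 to 62330 TPM in workers, with 96hW replicate 1 the lowest of all 8 heads. This library also stood apart from the other workers in the chi-square per gene (202 to 262, against 22.0 to 32.6 among the other 3). The part that any of these differences have in the members' values was not tested.

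The members fell into a very abundant group and a group of ordinary abundance. Of the 18 members under cytoplasmic translation, 17 had a mean of between 1170 and 3329 TPM over the 8 heads. The highest were LOC552272 at 3329 TPM, LOC726171 at 2741 TPM, LOC409290 at 2653 TPM, LOC552726 at 2652 TPM and LOC551330 at 2241 TPM, where LOC409290 and LOC552726 did not differ beyond their spread between heads. LOC552272 ranked 23rd of all paired genes by TPM. The exception was LOC727436, which carries the same term and macromolecular complex assembly and stood at 11.5 TPM. Among the 19 tested members without the cytoplasmic term, LOC552649 came closest to the abundant group at 881 TPM. The other 18 lay between 9.18 TPM (LOC725012) and 273 TPM (LOC725039). The abundant group was also short, with a median transcript length of 620 bases over the 18 cytoplasmic members and of 1665 bases over the 19 others.

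On counts, most members leaned toward queen heads by small amounts, and few passed the test. By edgeR's quasi-likelihood test, with p adjusted over all genes and a threshold of 0.01, 2 of 37 members were higher in 96hQ (5.21% of all genes tested), 1 was higher in 96hW (3.4% of all genes) and 34 did not pass. The shares that passed were near those of all genes and say nothing particular about the members. The direction was less even: on counts, 31 of 37 members had a positive log2 fold change, where 50.7% of all genes did. With the length offset 25 members did (4241 of all 8156 genes), and on log2(TPM + 1) 19 did (2633 of all 8156 genes), both given below. Members above the median of all genes numbered 31 on counts, 22 with the length offset and 31 on log2(TPM + 1). The median log2 fold change was 0.17 over the members and 0.005 over all genes tested. In 20 members the castes did not overlap and queens were higher (17.2% of all genes), and in 2 members they did not overlap and workers were higher (14.7% of all genes). At an adjusted p under 0.05 from edgeR, 12 members were higher in 96hQ (14.7% of all genes) and 2 in 96hW (12.2% of all genes).

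**Figure D1:**
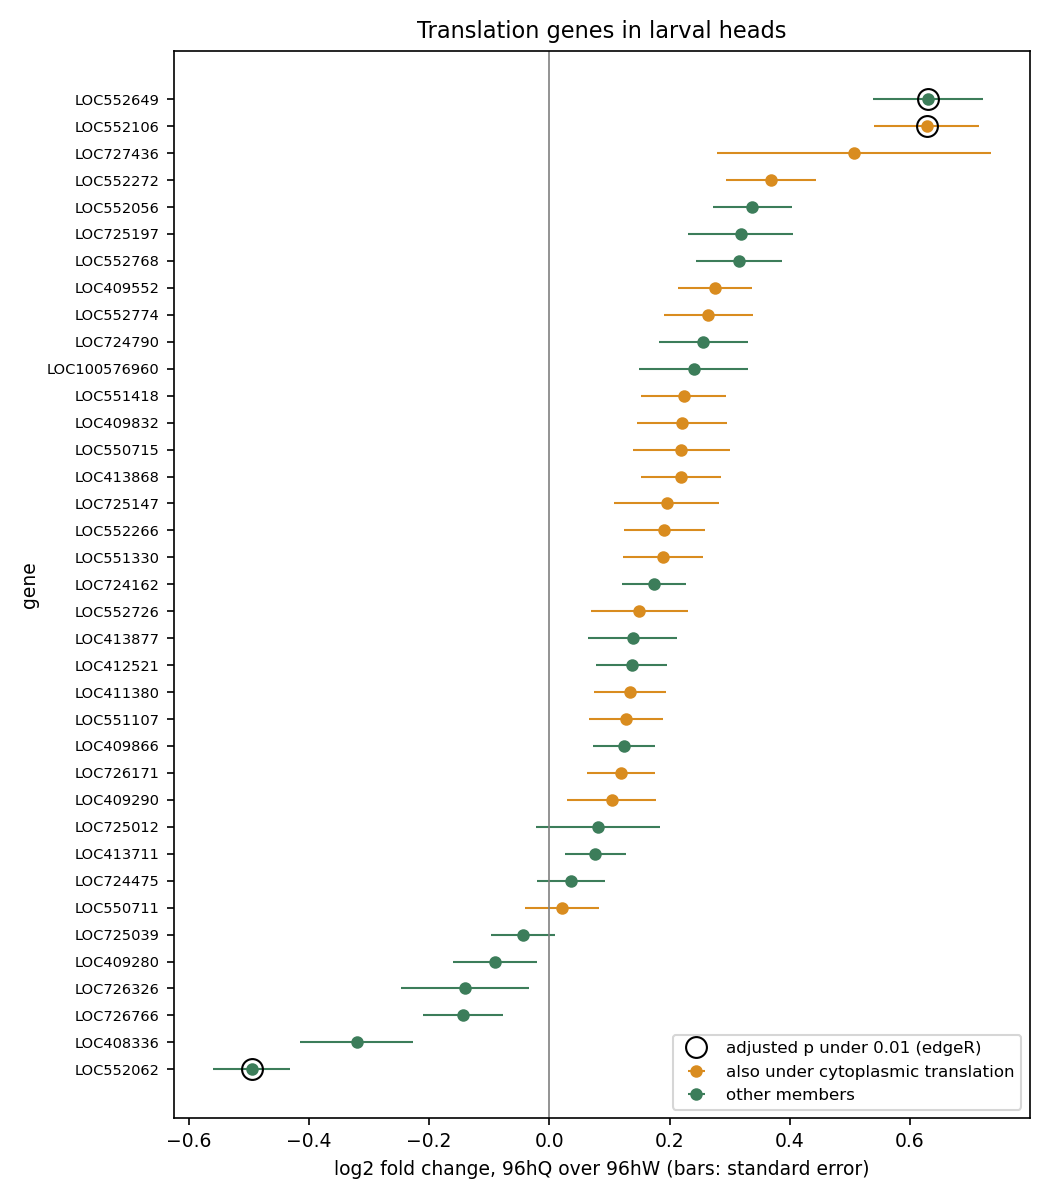
Log2 fold change of each of the 37 tested members (x axis, 96hQ over 96hW, with the standard error as bars), in order, with members under cytoplasmic translation in orange and other members in green, and rings on the 3 that passed. On counts all 18 orange points lie above 0 (12 of 18 with the length offset or on log2(TPM + 1)), and the 6 points below 0 are green. Of all 8156 genes tested, 4241 were above 0 with the length offset and 2633 on log2(TPM + 1).

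LOC552106 was the only cytoplasmic translation member that passed toward queens by edgeR at 0.01. Its normalized counts (scaled by TMM to the mean library) were 8756, 8444, 8847 and 8117 in the 4 queen heads and 4762, 5464, 5573 and 6307 in the 4 worker heads. The lowest queen head lay well above the highest worker head, and the spread was wider among workers. This is a 1.55-fold difference, or 0.63 on the log2 scale with an SE of 0.09 (edgeR, adjusted p = 0.0032). With a library left out, the adjusted p from edgeR rose past the threshold without 96hW replicate 2 (0.0145) and without 96hW replicate 3 (0.014). The study's table of RNA differences also has this gene under translation, so its direction is not independent of how that table was made.

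LOC552649 rose by a like amount. This gene has the term translation alone, and the same table of RNA differences holds it. Its normalized counts were 10771, 9090, 10466 and 8979 in queens and 5939, 6240, 6040 and 7178 in workers. The queen heads split into a higher pair (replicates 1 and 3) and a lower pair (replicates 2 and 4), and both pairs lay above every worker head. On the log2 scale queens were higher by 0.63, with an SE of 0.09 (edgeR, adjusted p = 0.0038). The adjusted p was 0.0105 without 96hW replicate 1, 0.0162 without replicate 2 and 0.0158 without replicate 3 of the workers (edgeR).

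LOC552062 moved the other way. It has the terms translation and macromolecular complex assembly, which covers the joining of proteins and RNA into larger particles. Its normalized counts were 924, 1046, 1013 and 930 in queens and 1283, 1353, 1427 and 1453 in workers. No queen head reached the lowest worker head, and each caste kept within a narrow band. Workers were 1.41-fold higher, a log2 fold change of -0.50 with an SE of 0.06 (edgeR, adjusted p = 0.0024). Without 96hQ replicate 4, or without 96hW replicate 2, 3 or 4, the adjusted p was just over the threshold (edgeR, at most 0.0114). At 23.4 TPM it was one of the less abundant members.

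**Figure D2:**
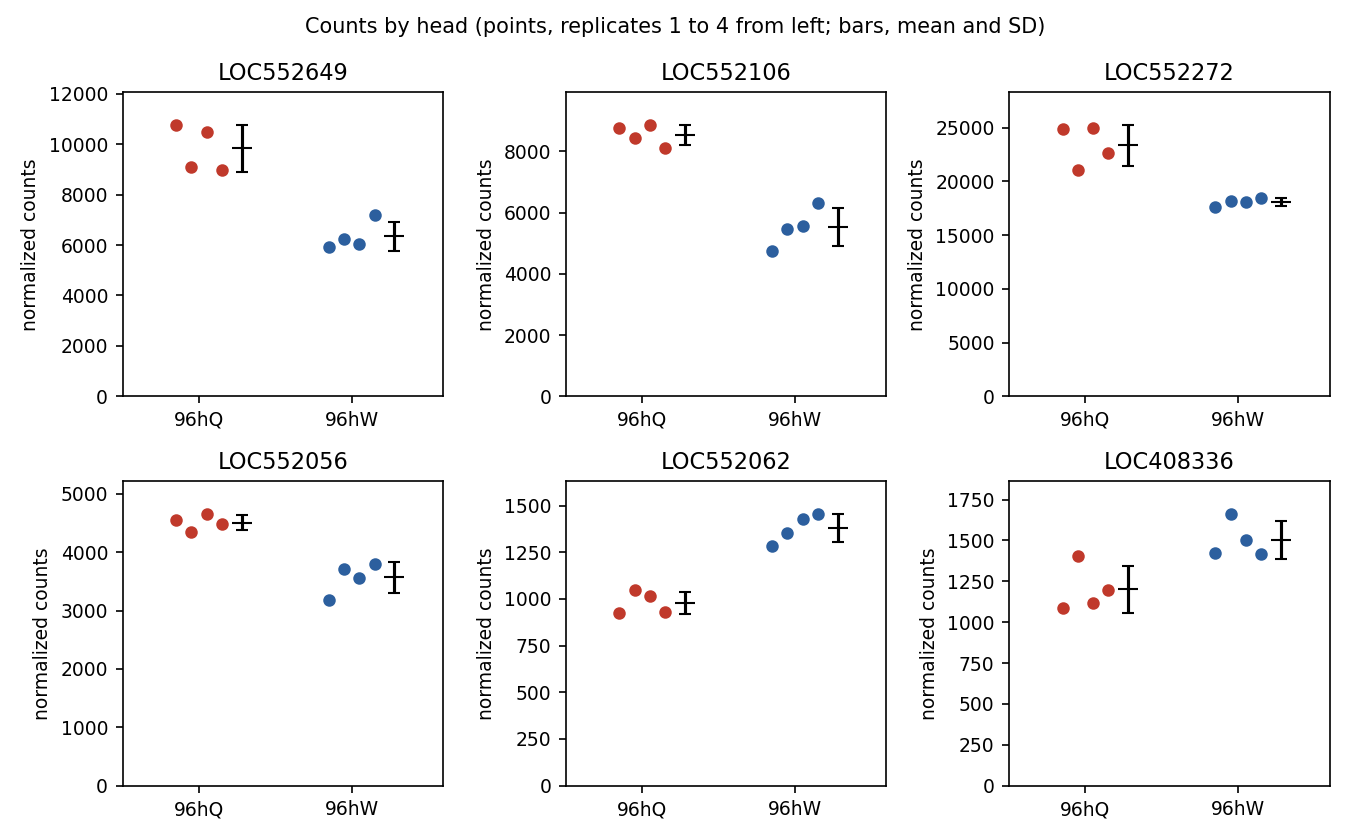
Normalized counts (y axis, from 0) of 6 members in each head, with 96hQ in red and 96hW in blue, replicates 1 to 4 from left to right, and the mean and SD as black bars. In the upper panels and for LOC552056 all queen heads lie above all worker heads, and for LOC552062 and LOC408336 all worker heads lie above.

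The members just outside the threshold lay in the queen direction. LOC552056 is the member that the table of RNA differences gives under translational initiation, the step that loads the ribosome on the mRNA. Its normalized counts were 4549, 4342, 4656 and 4482 in queens and 3188, 3711, 3566 and 3801 in workers, with no overlap and with 96hW replicate 1 the lowest. Queens were higher by 0.34 on the log2 scale, with an SE of 0.07 (edgeR, adjusted p = 0.0101). LOC552272, the most abundant member, had 24890, 21025, 24954 and 22639 normalized counts in queens and 17623, 18218, 18090 and 18485 in workers. The worker heads were tightly grouped and the queen heads were not, with an SD of 8.13% of the mean in queens and 1.99% in workers. The log2 fold change came to 0.37, with an SE of 0.08 (edgeR, adjusted p = 0.0114).

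LOC552768, whose further terms are of ncRNA and tRNA metabolism, had a log2 fold change of 0.32 with an SE of 0.07 (edgeR, adjusted p = 0.0159). The table of RNA differences holds this gene too, under translation and tRNA metabolic process. Its direction, like that of LOC552056, is therefore not independent of how that table was made. The queen heads of LOC552768 had 1592, 1608, 1548 and 1580 normalized counts and its worker heads 1117, 1414, 1272 and 1282. The queen values differed little from each other (SD 1.62% of the mean), while the workers spread more widely, again with replicate 1 the lowest. LOC727436, the cytoplasmic member of low abundance, varied more between heads. It had 54.7, 95.6, 93.9 and 68.6 normalized counts in queens and 51.6, 60.5, 62.9 and 45.0 in workers, which overlap. The log2 fold change of 0.51 was the third largest among members, with the largest standard error among those named (0.23, adjusted p = 0.133 from edgeR).

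Below 0, LOC408336 (translation and ncRNA metabolic process) had 1087, 1405, 1116 and 1198 normalized counts in queens and 1421, 1662, 1504 and 1416 in workers. The highest queen head, replicate 2, came close to the lowest worker head but did not reach it. Its value on the log2 scale was -0.32, with an SE of 0.09 (edgeR, adjusted p = 0.0395). LOC726766, which has the longest transcript of the members at 5031 bases and the terms ncRNA metabolic process and complex assembly, overlapped between castes. Its queen heads had between 1945 and 2272 normalized counts and its worker heads between 2263 and 2527, a log2 fold change of -0.14 with an SE of 0.07 (edgeR, adjusted p = 0.145).

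Grouped by ontology term, the 18 cytoplasmic translation members had log2 fold changes from 0.02 to 0.63 on counts, with a median of 0.21. All 18 were above 0 on counts, and 12 of 18 were with the length offset described below (median 0.09) and on log2(TPM + 1) (median 0.05). Of all 8156 genes, 4241 were above 0 with the length offset and 2633 on log2(TPM + 1). Among the 18 cytoplasmic members, 13 had all queen heads above all worker heads (17.2% of all genes). By edgeR, 6 were higher in queens at an adjusted p under 0.05 (14.7% of all genes) and 1 under 0.01 (5.21% of all genes). The 19 tested members outside that term had a median of 0.12, with 13 positive and 6 negative, 1 that passed in each direction, and 7 with all queen heads above. All 6 members with a negative value were in this second group.

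The 8 members with the term ribosome biogenesis, the making of new ribosomal subunits, had a median of 0.16, with 8 positive on counts. With the length offset 4 of 8 were positive (4241 of all 8156 genes), and on log2(TPM + 1) 4 of 8 were (2633 of all 8156 genes). By edgeR 0 of these 8 members passed. By its unadjusted p under 0.05, 4 were higher in queens (21.9% of all genes), and by DESeq2 at 0.01, 3 were (12.7% of all genes). LOC409552, with ribosome assembly among its terms, had the largest value of this group, 0.28 (SE 0.06, adjusted p = 0.0151 from edgeR). LOC550715 and LOC726171, both with large subunit assembly, had 0.22 (SE 0.08) and 0.12 (SE 0.06). LOC413868, with rRNA metabolic process, had 0.22 (SE 0.07). The 7 tested members of ncRNA metabolic process had a median of 0.17, with 5 positive, and 0 passed by edgeR. By its unadjusted p under 0.05, 4 were higher in queens (21.9% of all genes) and 1 in workers (19% of all genes). DESeq2 at 0.01 gave 2 higher in queens (12.7% of all genes). The 9 of macromolecular complex assembly had a median of 0.12, and the 1 that passed was LOC552062, toward workers. LOC412521, which adds mRNA decapping to complex assembly, had 0.14 (SE 0.06).

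LOC724162 and LOC100576960 are the members that the study's combined table of histone and RNA differences gives under mitochondrial translation. LOC724162 had 982, 1089, 1002 and 1046 normalized counts in queens and 958, 917, 880 and 897 in workers, without overlap. Queens were higher by 0.17 on the log2 scale, with an SE of 0.05 (edgeR, adjusted p = 0.0449). LOC100576960, whose terms add tRNA aminoacylation, had 1409, 1510, 1190 and 1541 normalized counts in queens and 1153, 1313, 1137 and 1181 in workers. Here 96hQ replicate 3 fell among the workers, and the log2 fold change of 0.24 had an SE of 0.09.

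That combined table splits the members in a way that follows the RNA, since the study chose it on these libraries. The 22 tested members that it holds under translation had a median log2 fold change of 0.22. Of them 22 were positive on counts and 17 on log2(TPM + 1), where 2633 of all 8156 genes were. The 15 that it does not hold had a median of 0.04, with 9 positive. This is a description of how that table was made and no support for a direction.

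LOC552774 and LOC725147, cytoplasmic members with more than 1 transcript, stood at 1390 and 1201 TPM, with log2 fold changes of 0.26 (SE 0.07) and 0.20 (SE 0.09). On counts, LOC551330 had a log2 fold change of 0.19 (SE 0.07), LOC552726 one of 0.15 (SE 0.08) and LOC409290 one of 0.10 (SE 0.07). Of the 16 members whose fold changes are given by range only, 6 were cytoplasmic. These had between 1527 and 1994 TPM and log2 fold changes from 0.02 to 0.22. In 5 of the 6 the castes did not overlap and queens were higher (17.2% of all genes). The 10 others had between 9.18 and 273 TPM and log2 fold changes from -0.14 to 0.32. Among them 7 were positive (50.7% of all genes), and 3 were higher in queens without overlap (17.2% of all genes).

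Short transcripts leaned toward queens throughout the transcriptome. Of the 1394 tested genes under 1000 bases, 69.1% were above 0. Their median was 0.17, and the 22 members in that class had a median of 0.21. From 1000 to under 2000 bases, the 2795 genes had a median of 0.05 and the 7 members one of 0.14. At 2000 bases and more, the 3967 genes had a median of -0.08 and the 8 members one of -0.03, with 4 positive. In each class the median of the members lay above that of all genes, by 0.03, 0.09 and 0.05. Spearman's rho between transcript length and log2 fold change was -0.38 across the 37 members and -0.24 across all 8156 genes, which share libraries and are not independent replicates.

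**Figure D3:**
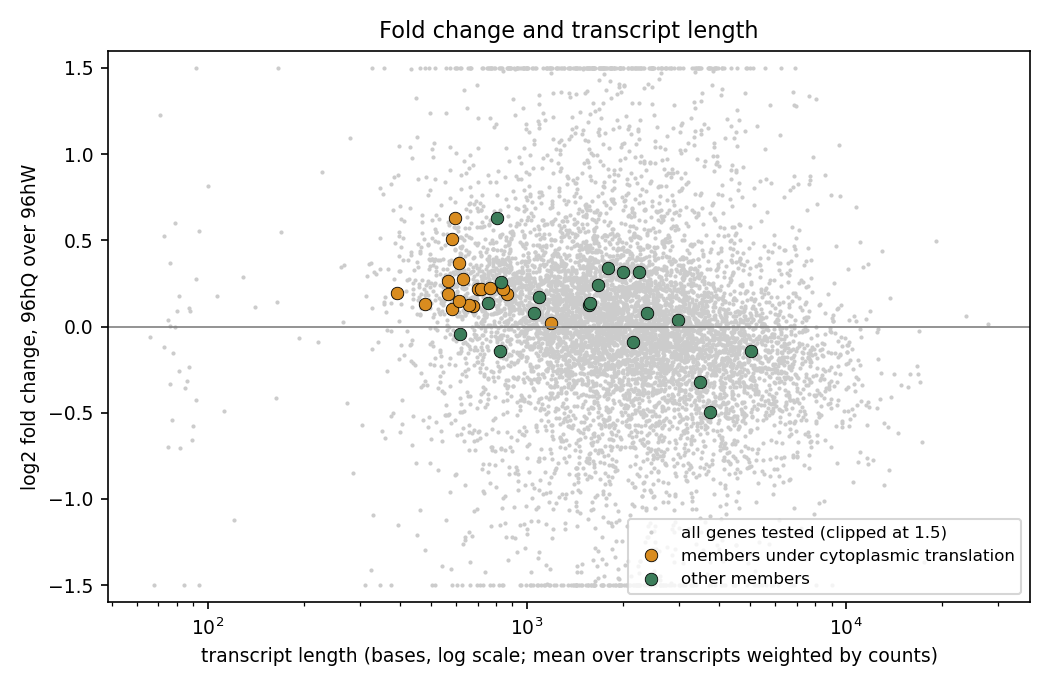
Log2 fold change (y axis, 96hQ over 96hW) against transcript length in bases (x axis, log scale) for all tested genes (grey, values beyond 1.5 drawn at 1.5) and the members (orange under cytoplasmic translation, green otherwise). The orange points sit among short transcripts, where the grey cloud lies above 0.

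Fragment length differed between the libraries. The deposited length minus the effective length, which reflects the length of the sequenced fragments, was 180 ± 9.15 bases in queens and 188 ± 3.29 bases in workers (SD, n = 4 libraries each), with overlapping ranges of 169 to 188 and 185 to 192. With a trend on transcript length removed in each library (the length offset), the median of the members fell to 0.09, against 0.02 over all genes. Then 25 of 37 members were positive, where 4241 of all 8156 genes were. The cytoplasmic and other members then had medians of 0.09 and 0.10, so the order of these groups turned, while the same counts passed (2 higher in 96hQ and 1 in 96hW). With the deposited effective lengths as an offset, a setting added after the data were seen, the median was 0.15 with 31 positive. Then 3 members were higher in 96hQ, LOC552056 being the third (adjusted p = 0.00998 from edgeR).

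On TPM the picture shifted for all genes together. The median over all genes on log2(TPM + 1) was -0.14, and that of the members 0.006. On this scale 19 of 37 members were positive, where 2633 of all 8156 genes were. Relative to all genes the members were higher by 0.15, close to the 0.17 on counts. By limma on this scale 0 members passed in either direction at 0.01, and 5 of 37 had an unadjusted p under 0.05, less than the 32.7% of all genes. By edgeR on counts 21 of 37 had one, where 41% of all genes did. DESeq2 on counts gave 11 members higher in 96hQ (12.7% of all genes) and 1 in 96hW (10.6% of all genes). Of all genes that passed, 38.0% were higher in 96hQ on this scale and 60.5% on counts. Summed over the 37 members, the share of a library's counts ran from 1.20% to 1.36% in queens and from 1.13% to 1.16% in workers, without overlap. The summed TPM ran from 31342 to 37796 in queens and from 32470 to 35407 in workers, and here the castes overlapped.

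**Figure D4:**
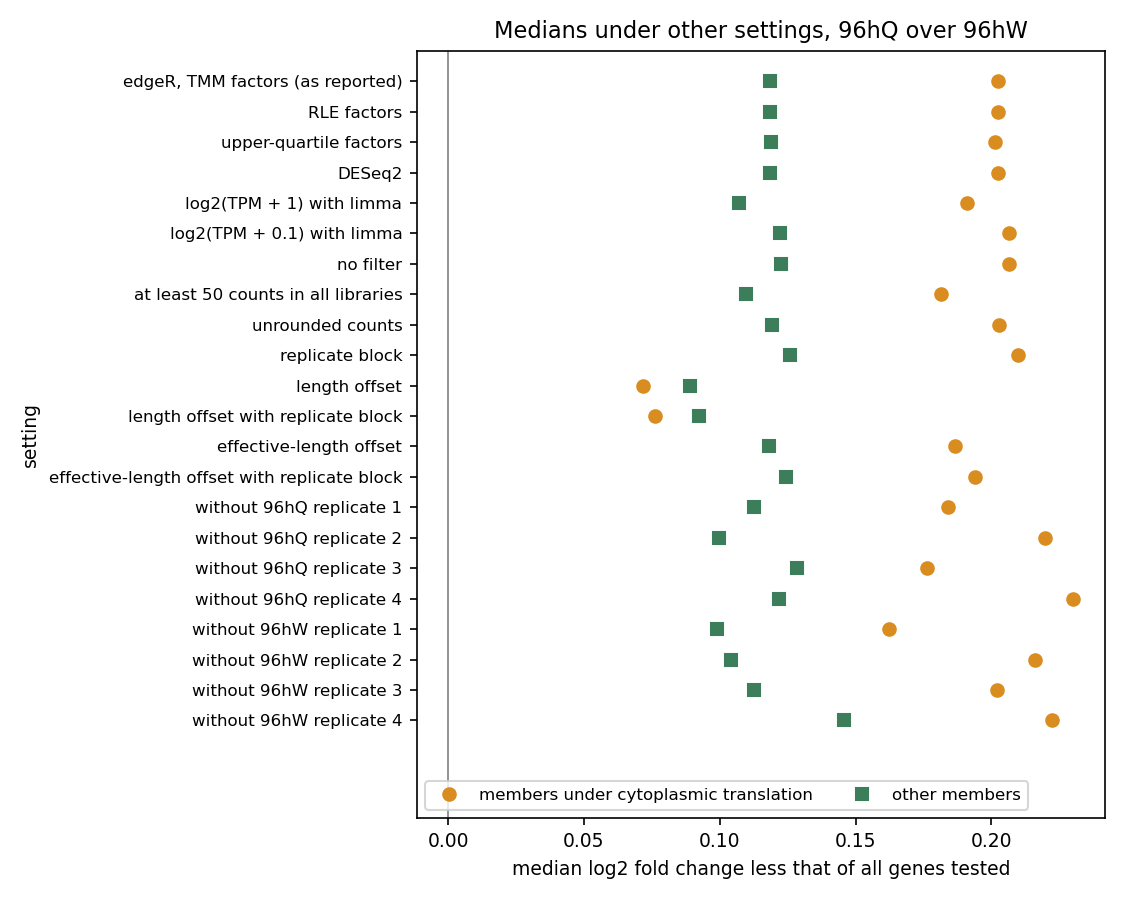
Median log2 fold change (x axis, 96hQ over 96hW, less the median of all genes tested) of the 18 cytoplasmic members (orange circles) and the 19 others (green squares) under each setting on the y axis. All points lie above 0, and the order of the 2 groups turns only where a trend on transcript length is removed.

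Single heads took regular places among the members. The 96hW replicate 1 was the lowest worker head for 23 of 37 members (62.2%), where it was the lowest for 33.5% of all genes. The 96hQ replicate 3 was the highest queen head for 11 of the 18 cytoplasmic members (31.7% of all genes). The 96hQ replicate 4 was the lowest for 12 (16.6% of all genes). Outside the cytoplasmic term these counts were 3 and 3 of 19. Among the cytoplasmic members, 96hQ replicate 1 was the highest for 6 and replicate 2 the lowest for 5. Length minus effective length was 169 and 175 bases in queen replicates 1 and 3, and 186 and 188 in replicates 2 and 4. The part of fragment length in these places was not tested. Without 96hW replicate 1, the median of the members was 0.16, that of the cytoplasmic ones 0.17 and that of the others 0.11, with 31 positive. In that fit 1 member was higher in 96hQ (LOC552106) and 1 in 96hW (LOC552062).

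The members were also compared transcript by transcript. Of 49 member transcripts tested, 4 were higher in 96hQ (0.882% of 20863 transcripts) and 0 were higher in 96hW (0.316% of transcripts) by edgeR at an adjusted p under 0.01. By its unadjusted p under 0.05, 29 of 49 differed, with 3 of them higher in 96hW and the rest in 96hQ. DESeq2 gave 13 higher in 96hQ and 1 in 96hW. The shares of all transcripts by these measures are not given here, so these counts say nothing particular about the members. Of the 4, one each is the only paired transcript of LOC552106 (XM_006567692) and of LOC552649 (XM_625024). With single libraries left out, these passed in 0 of 8 fits, with adjusted p from 0.0151 to 0.0381 and from 0.0165 to 0.0399 (edgeR). The other 2 are the less abundant transcripts of LOC409552 and LOC409290, genes that did not pass as sums.

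XM_393059 is the lesser transcript of LOC409552, and XM_623300 is the main one. XM_393059 had 4509, 4035, 4847 and 4716 normalized counts in queens and 2552, 2405, 2934 and 2588 in workers. Queens were higher by 0.79 on the log2 scale, with an SE of 0.09 (edgeR, adjusted p = 0.0055), and the log2 fold change of XM_623300 was 0.10 (SE 0.06). The share of LOC409552's counts in XM_393059 came to 36.4% ± 2.30 for queens and 26.2% ± 1.57 for workers (SD over 4 heads each), without overlap. Without single libraries its adjusted p from edgeR ran from 0.00921 to 0.0252 and passed in 1 of 8 fits, with the log2 fold change between 0.75 and 0.85.

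XM_016917948 is the lesser transcript of LOC409290. It had 847, 902, 827 and 938 normalized counts in queens and 423, 470, 499 and 440 in workers, so that every queen head lay far above every worker head. The log2 fold change of 0.94, with an SE of 0.08 (edgeR, adjusted p = 0.0039), was the largest among the 4 transcripts that passed. The main transcript XM_006561926 held 94.5% of the gene's counts in queens and 96.9% in workers and had a log2 fold change of 0.11 (SE 0.08). Without single libraries XM_016917948 passed in 3 of 8 fits, with an adjusted p of at most 0.0228 (edgeR).

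Of the 8 members with more than 1 paired transcript, 4 had a share of the main transcript that did not overlap between castes, compared with 8.2% of the 3453 tested genes with more than 1 paired transcript and 11.1% of the 1624 of these with a mean of at least 1000 counts, as all 8 members have. Besides the genes above, these were LOC725147 and LOC552062. In LOC725147, a cytoplasmic member, the shorter transcript XM_006564217 held 21.3%, 14.5%, 19.6% and 11.4% of the counts in queens and 9.07%, 7.58%, 8.54% and 6.51% in workers. XM_006564217 is only 248 bases long. Length minus effective length was 169, 186, 175 and 188 bases in these queen libraries and 186, 185, 192 and 189 in the worker libraries. The part of fragment length in these shares was not tested. In LOC552062, the main transcript XM_006571773 held 66.9% ± 3.37 in queens and 57.3% ± 2.28 in workers (SD, n = 4 heads each). Exact permutation of the 8 heads gave p = 0.0286 for each of the 4 shares (two-sided), the smallest that 4 against 4 heads can give. Adjusted by Benjamini-Hochberg over the 3402 such genes with counts in every library, this exact p came to 0.343. The smallest possible exact p lies above the threshold even before adjustment. No gene could pass this test, so it decides nothing about the 4 shares. The other 4 genes (LOC408336, LOC550715, LOC552768 and LOC552774) overlapped. Shares of this kind depend on how the reads were divided among similar transcripts, and the error of that step was not measured.

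**Figure D5:**
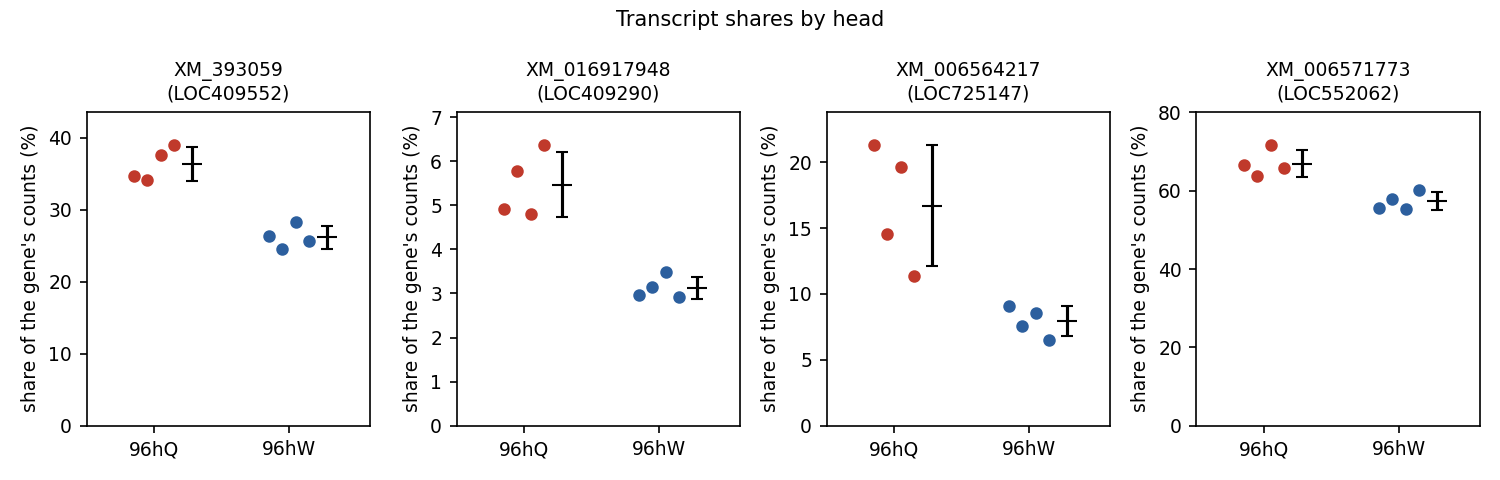
Share of the gene's estimated counts (y axis, percent, from 0) in 1 transcript each of LOC409552, LOC409290, LOC725147 and LOC552062, by head, with 96hQ in red, 96hW in blue and the mean and SD as black bars. The transcript drawn is the lesser one for LOC409552, LOC409290 and LOC725147 and the main one for LOC552062. In each panel the queen heads lie above the worker heads, which follows from this choice. The share of the main transcript was higher in 96hQ in 1 of these genes and in 96hW in 3.

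The genes that the exclusions removed show what the members lack. All 10 that the RNA tables removed had positive log2 fold changes, from 0.38 to 0.54, with a median of 0.45 and no overlap between castes, and 5 passed toward 96hQ. Since the study put them in those tables for being higher in these queen libraries, this is a description only. With them and RpL32 put back, the median was 0.22 over 48 tested genes. Of these, 7 were higher in 96hQ (5.21% of all genes) and 1 in 96hW (3.4% of all genes). The 8 tested genes whose symbol starts with Rp had a median of 0.22, with 8 positive on counts and 6 on log2(TPM + 1) (2633 of all 8156 genes). Of these, Rpn1 is a proteasome subunit in other species and no ribosomal protein. By edgeR 0 of the 8 passed, and 6 were higher in 96hQ at an unadjusted p under 0.05 (21.9% of all genes). DESeq2 at 0.01 gave 4 higher in 96hQ (12.7% of all genes). Ribosome biogenesis genes of the same chromatin table that are no members had a median of 0.33 over 16 tested, with 3 higher in 96hQ (5.21% of all genes). This group still holds genes that the RNA tables removed, such as LOC408515, so it too is a description only. Genes of amide metabolism outside translation had a median of 0.16 over 10, with 1 higher in 96hQ (5.21% of all genes). Over all 140 tested genes of that chromatin table, which include the members and the removed genes, the median was 0.14. Of these, 13 were higher in 96hQ (5.21% of all genes) and 2 in 96hW (3.4% of all genes).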

How the data were processed

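Heads of 4 queen and 4 worker larvae were compared. The authors made the deposited estimated counts and TPM with kallisto (version not given in the sources used here) for 28739 RefSeq transcripts, without normalization between libraries, while the methods name an Ensembl transcript set. Transcripts were paired with genes by accession root through a table of assembly Amel_HAv3.1, used for names only (17723 paired), and estimated counts were summed per gene and rounded. The sums of 33 of 37 members were whole within 0.1 in every library, and those of LOC551107, LOC552266, LOC552774 and LOC100576960 were not, so these share reads with transcripts outside the sum.

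Tests used edgeR 4.0.16 in R 4.3.3 (TMM, 5 or more counts in 4 or more libraries, quasi-likelihood F test, caste alone in the design, Benjamini-Hochberg over all features, threshold 0.01), checked on simulated data. The study used sleuth instead. An SE is the absolute log2 fold change over the square root of its F statistic. Alternatives were other size factors, filters and thresholds, unrounded counts, DESeq2 1.42.0, limma 3.58.1 on log2(TPM + 1) and log2(TPM + 0.1), offsets for transcript length and effective length (the latter chosen after seeing the data), a replicate block, and each library left out.

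Members and lists were chosen with earlier results of these data known. The named genes are members that passed, the 5 highest by TPM, the 3 largest log2 fold changes each way among those with a mean of at least 10 normalized counts, and the 2 smallest p that did not pass. LOC724162, LOC100576960, LOC412521, LOC413868, LOC552768, LOC409552, LOC550715, LOC552774, LOC725147 and the members at either end of a range were named after values were seen. Library totals ran from 19139730 to 23344818 counts. Counting error was not separated from the spread between heads.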

Additional observations from a re-analysis of the deposited data

Results flagged for a closer look

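In each caste, each member's highest and lowest head was compared with the rest of its group of 4. Of 74 such groups, 2 had a head far from the others, where chance gives about 1 in 20 groups, or 3.7 here. LOC551107, a cytoplasmic translation gene, had 12010 normalized counts in 96hQ replicate 1 and between 11169 and 11295 in the other queen heads, a gap of 0.85 of the range. LOC724475, with the term translation alone, had 956 normalized counts in 96hQ replicate 2 and between 878 and 885 in the other queen heads, a gap of 0.916 of the range.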

How the results depend on the processing

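Of all genes, 702 passed. The count was 2189 at a threshold of 0.05, 1900 by DESeq2, 234 on log2(TPM + 1), 227 on log2(TPM + 0.1) and between 142 and 774 with single libraries left out. Of the transcripts, 250 passed, 2286 by DESeq2 and between 2 and 152 with single libraries left out. Members higher in 96hQ, 2 as reported, numbered 12 at 0.05, 4 with upper-quartile factors, 11 by DESeq2, 0 on either TPM scale and from 0 to 2 with single libraries left out. They were 1 without 96hW replicate 1 and 0 without replicate 2 or 3 of the workers. Members higher in 96hW, 1 as reported, numbered 2 at 0.05, 0 on either TPM scale and from 0 to 1 with single libraries left out. The median of the members, 0.17, was 0.0056 and 0.0057 on the 2 TPM scales and 0.0909 with the length offset. In these settings some members that had not passed changed sign. LOC409290 was at -0.083 on both TPM scales and -0.051 with the length offset, LOC726171 at -0.0554 and -0.0174, and LOC552726 at -0.0324 and -0.00016. LOC412521 was at -0.0222 on log2(TPM + 1) and -0.0228 on log2(TPM + 0.1). The cause of these changes of sign was not tested. The median of all genes on log2(TPM + 1) was -0.14. Less that median, LOC409290 lay at 0.059, LOC726171 at 0.086, LOC552726 at 0.109 and LOC412521 at 0.119. RLE factors, unrounded counts and no filter left the members' counts and median as reported.

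The replicate numbers did not pair the heads: the deviations of same-numbered queens and workers correlated at 0.10, 0.01, -0.04 and -0.05. With the replicate number as a block, 10 genes and 1 transcript passed. With the block, 5 genes passed with the length offset and 6 with the effective-length offset. The members that passed numbered 0 in each direction in all of these fits. With the block alone, 18 members had an unadjusted p under 0.05 by edgeR, as did 3034 of all 8156 genes. The median of the members was 0.17 with the block and 0.0939 with the block and the length offset, where LOC409290 was at -0.055, LOC726171 at -0.0185 and LOC552726 at -0.0034.

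The members that passed differed by 0.50 to 0.63 on the log2 scale, and LOC727436 at 0.51 did not pass. Whether the lean of the members toward queens goes beyond that of other short transcripts was not tested.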
